A study of Mus musculus with 12 samples.

Results

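The cell cycle, p53 and growth genes described here are 46 named genes of the 22367 protein-coding genes on the main chromosomes of the GENCODE M1 annotation (mouse build mm9). They fall into 9 roles: growth transcription factors (Myc, Mycn, Mybl2), cyclin-dependent kinases, cyclins, Cdk inhibitors, the Rb family with its E2f partners, replication factors, the p53 family with Mdm2 and Mdm4, damage response and death genes, and checkpoint kinases. For each gene the promoter spans the 2000 bp before the gene start and the first 500 bp after it, the body is the rest of the gene, and the level of a promoter or body is the percent of all reads over its CpGs that were methylated, given where at least 3 CpGs had 5 reads or more. The members were named by their known function, with earlier results of these data at hand, and no methylation value enters the rule.

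Methylation levels come from reduced representation bisulfite sequencing (RRBS), which reads CpGs near the CCGG sites cut by the enzyme MspI, in PKD1-Het cells, Pkd1 heterozygous proximal renal tubule epithelial cells of the mouse. The cells came from Pkd1 flox/-:TSLargeT mice, and all groups share that genotype, whose name refers to large T, a viral antigen known to bind p53 and the Rb family. Cells were treated for 24 h with PBS (the control) or with drug, with 3 libraries a group. The treatments with drug were 50 µM Aza (5-aza-2′-deoxycytidine, a DNA methyltransferase inhibitor), F-MTAza (free Aza at 50 µM, tolvaptan at 10 µM and metformin at 300 µM) and NP-MTAza (the same 3 drugs at the same doses in micelles). Nothing in the labels says that the libraries of a group came from separate cultures or animals, so p-values measure only the spread between these libraries, which may be technical. Every group with drug held Aza, so no group shows metformin or tolvaptan alone.

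Aza replicates 1 and 2 were left out of all comparisons, and the Aza group was represented by replicate 3 alone. The 10 libraries used held 25336747 to 65817118 reads over listed CpGs, with a median of 7 to 9 reads per CpG. PBS replicate 2 listed the fewest CpGs (1860418, against up to 3979987) and read higher than the other PBS libraries at promoters that are otherwise near 0: its median over the members with a promoter level was 4.88%, against 1.76% and 1.57% in PBS replicates 1 and 3. In NP-MTAza replicates 1 and 2 the labels report 2 sets of barcodes. The promoters of 4 measured proximal tubule markers had a median of 87.2% in PBS, those of 7 markers of other kidney, vessel and connective cells 75.3%, and expression was not measured, so the labelled cell type was not checked by its markers' RNA.

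As background, the members drive and restrain one circuit. Cyclins bind cyclin-dependent kinases, these phosphorylate the Rb family, and E2f factors then switch on replication genes such as the Mcm helicase subunits and Pcna. Cdk inhibitors block the kinases, p53 (Trp53) switches on the inhibitor p21 (Cdkn1a) and death genes such as Bax and Bbc3 (Puma) after damage, and Mdm2 and Mdm4 hold p53 down. Promoters of such housekeeping genes are usually CpG islands, stretches rich in CpGs that carry no methylation, while gene bodies carry much of it, and silencing of Cdkn2a, which encodes both p16Ink4a and p19Arf, by promoter methylation is well known in cultured and tumour cells.

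The member promoters were rich in CpGs. They held a median of 37.0 CpGs per 1000 bp, against 23.2 over all 22367 genes, and a median of 11 CCGG sites against 6. Binding motifs of E2f factors, searched on both strands as TTTCCCGC, TTTGGCGC, TTTCGCGC and TTTGCCGC, were found in 20 of the 46 promoters (43.5%) and in 9.81% of all promoters, and the E-box CACGTG of the Myc family in 19 (41.3%) and in 30.8% of all. Of the 31 E2f motif sites, 24 lay within 250 bp of a start. PBS reads covered a CpG of 18 sites, in all of which the pooled PBS level was under 10%. Some of these, in Cdk1, E2f3, Mcm5, Mcm6 and Rb1, rest on 5 or 6 PBS reads. All member CpGs 1 to 250 bp upstream of a start stood at 2.54% in PBS, and those 0 to 249 bp inside at 1.76%. The low level is thus not particular to the motif. Over the E2f motif CpGs that were read, the PBS level was 1.23% ± 1.95 and that of NP-MTAza 0.0911% ± 0.158 (SD, n = 3 each). A motif match is a match of letters, and binding was not measured.

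A promoter level was obtained for 44 of the 46 members in at least 1 of the 10 libraries and for 37 in all of them. Cdkn1a and Cdkn2d had none. In PBS 42 had a level: 33 of these (78.6%) were under 10%, 8 (19.05%) lay from 10% to 50%, and 1, Trp73, was over 50%. Over all genes with a PBS promoter level the same classes held 36.3%, 26.2% and 37.5%. Among the 33 near 0 were Myc at 2.56% ± 2.00, Trp53 at 2.24% ± 1.07, Rb1 at 7.17% ± 4.48 and Cdkn2a (at its p19Arf start) at 4.29% ± 2.48 (SD, n = 3 each), together with all 4 checkpoint kinases (Atm, Atr, Chek1, Chek2), all 3 Gadd45 genes and 3 of the 4 cyclin-dependent kinases. The limit of 10% ran between Bbc3 at 11.1% just above it and Cdkn1b at 9.99% just below it. The window of Trp53 also covers the start of Wrap53, that of Atm the start of Npat, that of Chek2 the start of Hscb and that of Cdk2 the start of Pmel, so these levels belong to pairs of genes.

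**Figure D1:**
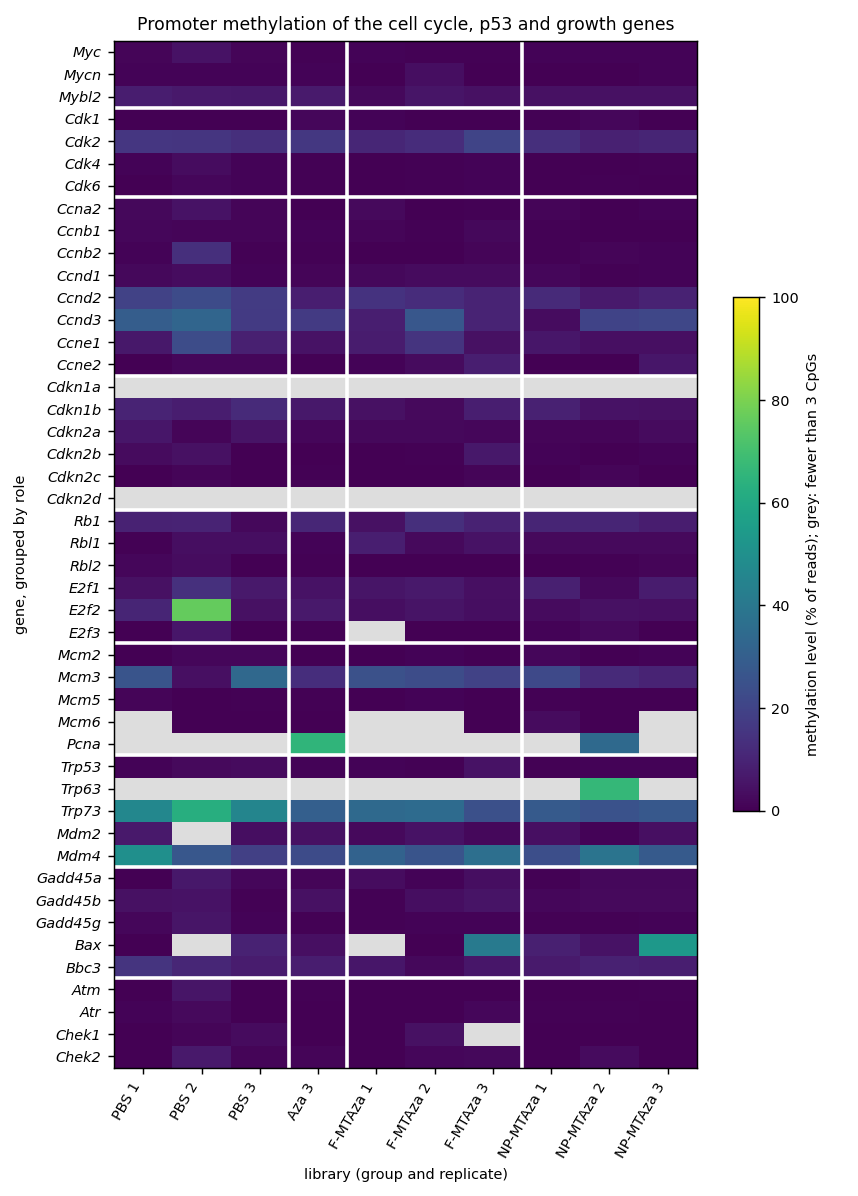
Promoter methylation level (colour, percent of reads) of the 46 members (rows, grouped by role) in the 10 libraries used (columns); grey cells had fewer than 3 CpGs. Most rows stay near 0 in all groups, and Trp73, with 45.5% to 62.7% in PBS, has the highest PBS mean.

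Trp73, which encodes the p53 relative p73, had the highest PBS promoter level among the members. Its promoter read 46.4%, 62.7% and 45.5% in the PBS libraries, 34.3%, 35.1% and 24.4% in F-MTAza, 28.4%, 25.1% and 27.7% in NP-MTAza and 30.2% in Aza replicate 3. All 7 libraries with drug lay below all PBS libraries. The mean fell from 51.5% ± 9.65 to 31.2% ± 5.96 in F-MTAza (adjusted p = 0.0308, limma with Benjamini-Hochberg adjustment over all genes tested) and to 27.1% ± 1.77 (SD, n = 3) in NP-MTAza (adjusted p = 0.0129), while the single Aza library did not pass (adjusted p = 0.12). The F-MTAza call was lost without PBS replicate 2 (a difference of -14.74 points, adjusted p = 0.0635) and without F-MTAza replicate 3 (-16.88 points, adjusted p = 0.0804), and the NP-MTAza call was kept without any 1 library (adjusted p up to 0.0421). Where each CpG needed 10 reads the differences were -1.03 points (adjusted p = 0.96) and -27.4 points (adjusted p = 0.11), and on a logit scale neither passed (adjusted p = 0.0966 and 0.0528). The part of the Trp73 promoter with the most CpGs read in all 3 groups lies just downstream of the start, 70 to 369 bp inside the gene, on the minus strand at chr4:153513948-153514247. It is shown because this member carries partial methylation within its CpG-rich start region, and capitals mark the 15 of its 39 CpGs that had 5 reads or more in at least 2 libraries of each of PBS, F-MTAza and NP-MTAza.
Trp73: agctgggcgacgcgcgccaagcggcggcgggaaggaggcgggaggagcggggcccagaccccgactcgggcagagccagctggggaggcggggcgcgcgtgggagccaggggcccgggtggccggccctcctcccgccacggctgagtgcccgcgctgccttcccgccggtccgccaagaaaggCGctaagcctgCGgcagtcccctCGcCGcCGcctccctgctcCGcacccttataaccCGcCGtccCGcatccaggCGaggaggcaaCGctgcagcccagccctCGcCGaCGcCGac
Over the CpGs in capitals PBS stood at 46.6% ± 8.50 and F-MTAza at 26.0% ± 17.8 (SD, n = 2 each), NP-MTAza at 31.1% ± 15.3 (SD, n = 3) and Aza replicate 3 at 32.3%. In this stretch the libraries overlapped, with the highest NP-MTAza library at 47.9% and the lowest PBS library at 40.6%.

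Ccnd2, the gene of cyclin D2, which starts the cycle with Cdk4 and Cdk6, was the other member whose promoter passed. It read 19.9%, 22.9% and 17.5% in PBS, 14.7%, 12.6% and 9.97% in F-MTAza, 12.1%, 7.33% and 9.64% in NP-MTAza and 8.33% in Aza replicate 3, so that again no library with drug reached the lowest PBS library. Over all genes, the share of promoters without overlap of libraries was not counted. The calls of Trp73 and Ccnd2 come from these same libraries, so the separation is no separate evidence and no trait particular to these members. The fall to 9.69% ± 2.38 in NP-MTAza passed (from 20.1% ± 2.70, SD, n = 3 each, adjusted p = 0.0335 by limma), and 12.4% ± 2.36 in F-MTAza did not (adjusted p = 0.11). The NP-MTAza call was lost without PBS replicate 1 (adjusted p = 0.0777), PBS replicate 2 (0.0707), or NP-MTAza replicates 2 (0.111) or 3 (0.0901). The stretch printed next, positions -1050 to -751 from the Ccnd2 start on the minus strand at chr6:127101817-127102116, is the 300 bp with the most read CpGs more than 500 bp upstream, with 12 of its 20 CpGs in capitals by the same rule.
Ccnd2 upstream: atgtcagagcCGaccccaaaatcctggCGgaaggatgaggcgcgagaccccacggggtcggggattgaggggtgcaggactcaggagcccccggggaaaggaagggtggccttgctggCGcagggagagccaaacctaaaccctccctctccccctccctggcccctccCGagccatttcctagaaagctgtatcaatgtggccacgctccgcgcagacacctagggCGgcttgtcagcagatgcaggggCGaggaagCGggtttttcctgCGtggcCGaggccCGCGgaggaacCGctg
These 12 CpGs stood at 37.9% ± 10.8 in PBS, 22.2% ± 17.1 in F-MTAza and 17.7% ± 5.10 in NP-MTAza (SD, n = 3 each) and at 5.88% in Aza replicate 3. Here too libraries overlapped, with the highest F-MTAza library at 35.8% and the lowest PBS library at 26.5%.

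**Figure D2:**
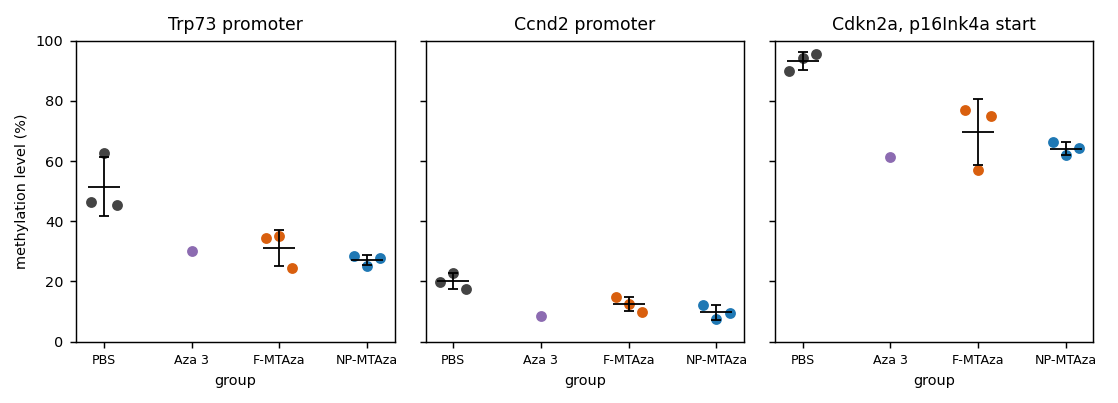
Methylation level (percent) in each of the 10 libraries (points) with mean and SD (bars, n = 3; Aza 3 is the single Aza library used) at the Trp73 promoter, the Ccnd2 promoter and within 500 bp of the p16Ink4a start of Cdkn2a. In all 3 panels the libraries with drug lie below the PBS libraries. The share of such windows over all genes was not counted.

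In this fit Trp73 and Ccnd2 were the only called promoters of the 41 members tested. In F-MTAza 1 of 41 was called lower, where 21.4% of the 14514 promoters tested were. In NP-MTAza 2 of 41 were, against 23.7% over all genes, and with Aza replicate 3 none of 41, against 10.0%. The limma count of members at an unadjusted p under 0.05 was 3, 2 and 2 of 41 in these comparisons, where 37.1%, 36.6% and 26.2% of all promoters were under it. No member promoter was called higher, with a background of 0.062%, 0.0138% and 0.0348%. The median difference over the 41 was -0.85 points in F-MTAza, -1.55 in NP-MTAza and -1.42 in Aza replicate 3, beside -5.66, -6.36 and -6.65 over all promoters tested. The members started lower, at a median PBS level of 2.74% against 18.8% over all promoters. Without the threshold of 10 points the counts were again 1, 2 and 0 of 41, against 22.3%, 24.0% and 10.0% of all promoters.

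The other 7 members of the 10% to 50% class did not pass in this fit, and the PBS libraries of several were far apart. Other choices of CpGs called other promoters: with 10 reads per CpG Bbc3 in F-MTAza (-13.96 points, adjusted p = 0.00796, limma), and with the CpGs listed in all 10 libraries Cdkn1b in F-MTAza (-11.4 points, adjusted p = 0.0311) and E2f2 beside Trp73 in NP-MTAza (-29.6 points, adjusted p = 0.0297, for E2f2). Mdm4 read 49.7%, 27.3% and 19.02% in PBS against 31.4%, 25.9% and 36.5% in F-MTAza and 23.8%, 38.6% and 28.1% in NP-MTAza, an overlap in both comparisons. E2f2, an activating E2f factor, read 10.3%, 76.5% and 4.54% in PBS and 3.04% to 6.79% in the 7 libraries with drug, and the high value belongs to PBS replicate 2, in which 24 CpGs with 196 reads were listed in that promoter against 54 and 61 CpGs with 3558 and 5150 reads in the other PBS libraries. Ccnd3 (cyclin D3) read 29.5%, 32.6% and 16.9% in PBS and 3.12% to 27.1% with drug. Mcm3, a subunit of the replicative helicase, read 26.0%, 3.91% and 33.7% in PBS and 10.1% to 24.8% with drug. Cdk2 read 15.8%, 15.4% and 13.4% in PBS and 9.02% to 20.5% with drug, Ccne1 (cyclin E1, the partner of Cdk2) 6.34%, 23.1% and 8.64% in PBS and 3.97% to 14.9%, and Bbc3 15.1%, 10.7% and 7.49% in PBS and 2.23% to 8.99%.

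Levels differed along the promoter. Over all members, CpGs 1 to 250 bp upstream of the start stood at 2.54% in PBS (1.06% to 4.94% in the 3 libraries) and those about 500 to 1000 bp upstream at 26.7% (21.8% to 32.2%). With drug the upstream CpGs, with reads pooled, stood at 17.6% in F-MTAza (15.4% to 18.8%), 15.8% in NP-MTAza (15.4% to 16.3%) and 19.9% in Aza replicate 3. These pooled values lay below the lowest PBS library in each case. Medians over the members with a level there (12 to 19 a library) overlapped. In PBS they were 38.2%, 12.8% and 4.56%, and in F-MTAza 10.0%, 9.46% and 11.3%. They were 11.3%, 8.54% and 7.98% in NP-MTAza and 5.65% in Aza replicate 3. Over all genes, with reads pooled, PBS stood at 23.1% at 1 to 250 bp upstream and at 46.7% at about 500 to 1000 bp. From 0 to 249 bp inside the gene it stood at 59.1%. Pooled values weigh deeply read CpGs most. At 1 to 250 bp upstream the PBS medians over genes were 1.19%, 5.0% and 1.07% for all genes. For members they were 0%, 4.48% and 0.272%. At about 500 to 1000 bp upstream F-MTAza stood at 37.1%, NP-MTAza at 32.6% and Aza replicate 3 at 32.4% over all genes, with reads pooled. Further out, F-MTAza overlapped PBS in the members. At positions -1500 to -1001 the levels were 24.3% in PBS (21.5% to 27.5%), 20.7% in F-MTAza (15.5% to 23.9%), 19.6% in NP-MTAza (at most 20.4%) and 18.3% in Aza replicate 3. At positions -2000 to -1501 F-MTAza lay above PBS in the mean, at 18.1% (12.3% to 21.5%) against 16.003% (9.38% to 20.4%), with NP-MTAza at 11.6% (7.89% to 13.9%) and Aza replicate 3 at 11.3%. From 0 to 249 bp inside the gene the levels of the members were near 0 in all groups. PBS stood at 1.76% (0.735% to 3.66%, the highest in PBS replicate 2), F-MTAza at 0.519% (0.439% to 0.664%) and NP-MTAza at 0.531% (0.439% to 0.637%). A stretch upstream of E2f2 (positions -930 to -631 from the start, chr4:135727379-135727678, plus strand) is printed because its upstream level was called lower in both combination groups, with capitals for the CpGs read as above, 10 of 11.
E2f2 upstream: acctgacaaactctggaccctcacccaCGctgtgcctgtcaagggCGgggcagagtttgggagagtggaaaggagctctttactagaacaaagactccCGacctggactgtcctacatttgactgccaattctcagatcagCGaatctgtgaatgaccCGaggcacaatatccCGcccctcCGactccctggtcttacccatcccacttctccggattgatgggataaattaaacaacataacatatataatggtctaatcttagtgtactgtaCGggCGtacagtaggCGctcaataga
The upstream CpGs in capitals stood at 88.4% ± 2.16 (SD, n = 3) in PBS, 68.4% ± 16.8 in F-MTAza, 59.7% ± 10.9 in NP-MTAza and 55.4% in Aza replicate 3. The lowest PBS library stood at 85.9% and the highest of the 7 libraries with drug at 79.1%. The stretch lies inside the window whose call in the same libraries was the reason to print it. Its separation of the groups is therefore no separate evidence.

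**Figure D3:**
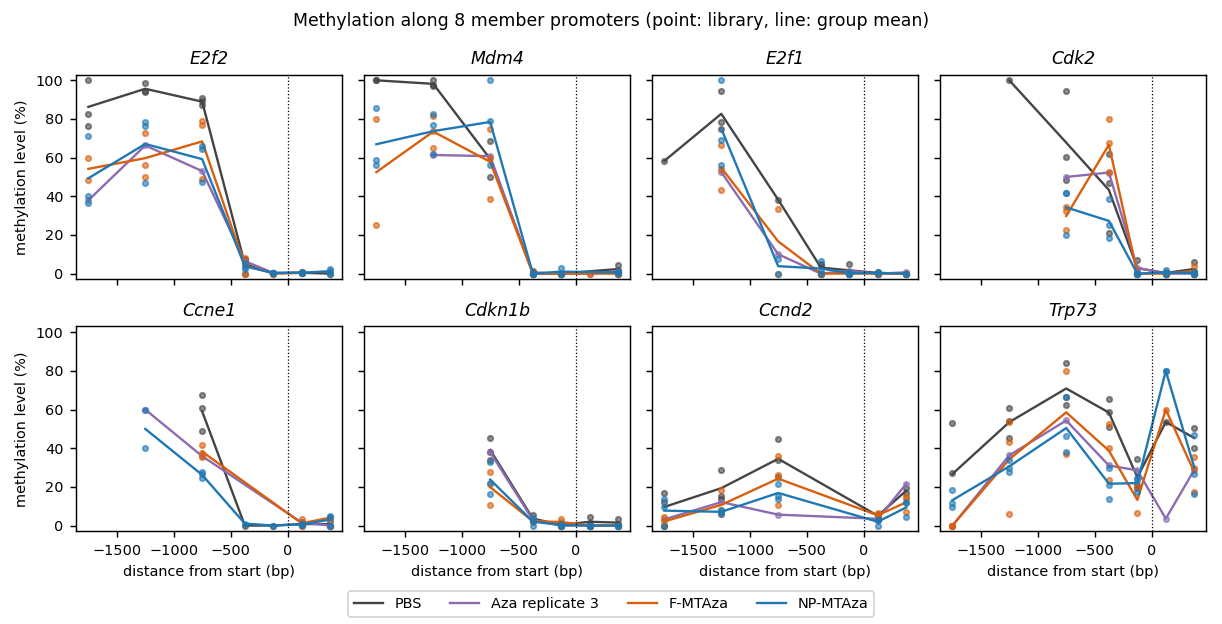
Methylation level (percent) by distance from the gene start (bp, bins plotted at their centre, dotted line at the start) for 8 members; points are libraries and lines group means of PBS, Aza replicate 3, F-MTAza and NP-MTAza. Levels are higher upstream than at the start in E2f2, Mdm4, E2f1, Cdk2, Ccne1, Cdkn1b and Ccnd2. In PBS, Ccnd2 stood at 25.6% from 500 to 2000 bp upstream (n = 3) and at 11.7% within 500 bp of the start (n = 2). Trp73 keeps most of its methylation at the start, with 59.1% and 47.3% (n = 3 each).

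The stretch from 500 to 2000 bp upstream was then fitted alone, whole, a choice made after these levels had been seen. It could be tested in 17 members. In F-MTAza 6 of 17 were lower (Mdm4, E2f1, E2f2, Cdkn1b, Ccne1, Cdk2) where 47.7% of 5712 genes were, in NP-MTAza 4 of 17 (E2f2, Ccnd2, Ccne1, Cdk2) against 50.8%, and with Aza replicate 3 2 of 17 (E2f2, Ccnd2) against 32.7%. No upstream stretch of a member was higher, where 0.035%, 0.0% and 0.0536% of all were. The median PBS level was 63.5% over all genes tested and 25.6% over these 17 members.

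E2f2 and Ccne1 were the members whose upstream fall was called in both combination groups and in every fit that left out 1 library. Over all genes, the share of upstream stretches called in both groups, kept in all such fits or without overlap of libraries was not counted. Neither trait can thus be read as particular to these members. Upstream of E2f2 the PBS libraries read 90.2%, 92.5% and 88.9%, F-MTAza 75.3%, 69.6% and 49.0%, NP-MTAza 48.0%, 68.7% and 62.7% and Aza replicate 3 55.8%. This was a fall of 25.9 points in F-MTAza (adjusted p = 0.0113) and of 30.7 points in NP-MTAza (adjusted p = 0.00534), both by limma. Upstream of Ccne1 the PBS libraries read 60.9%, 67.6% and 48.8%, F-MTAza 35.5%, 41.7% and 37.5%, NP-MTAza 28.2%, 27.7% and 25.3% and Aza replicate 3 38.6%, on 4 to 7 CpGs a library. It fell by 20.9 points in F-MTAza (adjusted p = 0.0149) and by 32.1 points in NP-MTAza (adjusted p = 0.00204, limma). In both genes every library with drug lay below every PBS library, and the levels within 500 bp of the start were 2.20% (E2f2) and 0.782% (Ccne1) in PBS. The Aza replicate 3 calls were those of E2f2 (adjusted p = 0.0249, lost at 0.0513 without PBS replicate 2) and of Ccnd2 (adjusted p = 0.033, lost without PBS replicate 1 at 0.0669 or 3 at 0.0568). Upstream of Ccnd2 the PBS libraries read 28.2%, 22.9% and 25.8%, F-MTAza 22.3%, 15.6% and 8.17%, NP-MTAza 14.5%, 11.5% and 11.01% and Aza replicate 3 6.34%, all with drug below PBS. Its NP-MTAza call (adjusted p = 0.0348) was lost without PBS replicate 1 (0.0928) or 3 (0.0711) or NP-MTAza replicate 1 (0.0524), 2 (0.0815) or 3 (0.0893).

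Cdk2, the kinase of cyclin E, was also called upstream in both combination groups. It read 48.3%, 95.7% and 60.5% in PBS, 22.7%, 32.1% and 34.5% in F-MTAza, 41.5%, 19.8% and 41.5% in NP-MTAza and 50.0% in Aza replicate 3, on 4 to 7 CpGs a library that lie near the start of the neighbouring gene Pmel. The combination groups lay below PBS without overlap (adjusted p = 0.0303 and 0.0429 by limma), and the F-MTAza call held in 6 of 9 fits without 1 library and the NP-MTAza call in 4 of 9. The F-MTAza call was lost without F-MTAza replicate 1 (adjusted p = 0.0718) or 2 (0.0516) or PBS replicate 2 (0.0519), and the NP-MTAza call without F-MTAza replicate 3 (0.0508), NP-MTAza replicate 1 (0.0627), 2 (0.131) or 3 (0.0631) or PBS replicate 2 (0.0875). Leaving out PBS replicate 2, its highest library, moved the difference from -38.4 to -24.6 points in F-MTAza and from -33.9 to -20.2 points in NP-MTAza. Mdm4, E2f1 and Cdkn1b (the Cdk inhibitor p27) were called in F-MTAza alone, in 8 of 9, 3 of 7 and 5 of 9 such fits. Mdm4 went from 89.8% ± 8.87 to 65.2% ± 5.49 in F-MTAza, Cdkn1b from 39.1% ± 5.94 to 19.9% ± 8.69 and E2f1 from 75.3% ± 20.9 to 41.7% ± 11.4 (SD, n = 3 each), while NP-MTAza stood at 72.5% ± 10.4, 23.8% ± 8.39 (SD, n = 3 each) and 63.2% ± 7.78 (SD, n = 2). Mdm4 was lost without F-MTAza replicate 3 (adjusted p = 0.0572). Cdkn1b was lost without F-MTAza replicate 1 (0.103) or 2 (0.0547) or PBS replicate 1 (0.101) or 3 (0.065). E2f1 was lost without F-MTAza replicate 2 (0.0755) or 3 (0.0919) or PBS replicate 2 (0.0946) or 3 (0.072), and rests on 3 to 11 CpGs a library. A difference between NP-MTAza and F-MTAza was tested in the same fit and was called in none of the 17.

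Cdkn2a holds both states within 1 gene. The gene start of the annotation is that of p19Arf, the protein that restrains Mdm2, and it was near 0 in PBS. The start of the transcript for p16Ink4a, the inhibitor of Cdk4 and Cdk6, lies 12461 bp further inside the gene, in what counts here as the body. Within 500 bp of that start the PBS libraries read 89.8%, 94.3% and 95.5%, F-MTAza 76.8%, 57.0% and 75.0%, NP-MTAza 66.2%, 61.9% and 64.4% and Aza replicate 3 61.4%. Every library with drug lay below every PBS library, with means of 93.2% ± 2.97 in PBS, 69.6% ± 10.9 in F-MTAza and 64.2% ± 2.12 in NP-MTAza (SD, n = 3 each). This window was not tested on its own. Both start regions are printed, on the minus strand, with the read CpGs in capitals by the rule above: 14 of 21 CpGs at chr4:88927857-88928156, which runs from 60 bp before to 239 bp after the p16Ink4a start, and 15 of 46 CpGs at chr4:88940558-88940857, the 300 bp before the p19Arf start.
p16Ink4a start: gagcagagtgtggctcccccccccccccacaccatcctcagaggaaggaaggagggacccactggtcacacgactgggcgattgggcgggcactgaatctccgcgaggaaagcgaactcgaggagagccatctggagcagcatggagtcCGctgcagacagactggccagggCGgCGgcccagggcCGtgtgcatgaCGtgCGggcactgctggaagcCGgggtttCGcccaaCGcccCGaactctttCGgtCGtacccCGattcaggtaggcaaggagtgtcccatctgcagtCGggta
p19Arf start: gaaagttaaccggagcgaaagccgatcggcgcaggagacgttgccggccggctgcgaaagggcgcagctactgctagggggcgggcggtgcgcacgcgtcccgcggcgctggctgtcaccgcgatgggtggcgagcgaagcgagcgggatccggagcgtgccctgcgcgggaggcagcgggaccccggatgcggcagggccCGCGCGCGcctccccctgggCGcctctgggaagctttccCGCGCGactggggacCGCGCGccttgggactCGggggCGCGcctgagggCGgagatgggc
In the p16Ink4a stretch all capitals lie after the start, and in the p19Arf stretch all lie before it. No CpG before the p16Ink4a start in the printed stretch met the rule for capitals. The stretches thus hold different sides of their starts, and the first gives no level for CpGs before the p16Ink4a start. At the p16Ink4a start the CpGs in capitals stood at 97.3% ± 1.02 in PBS, 70.9% ± 11.7 in F-MTAza and 66.0% ± 4.60 in NP-MTAza (SD, n = 3 each) and at 65.0% in Aza replicate 3. At the p19Arf start none of 255 PBS reads, summed over the CpGs in capitals in 2 libraries, was methylated, and 2 of 457 NP-MTAza reads were. Counting error alone allows a PBS level of up to 1.18%. That limit takes each count as a separate read, though 1 read can be counted at several CpGs, so it is too tight. Over the whole body of Cdkn2a the level fell from 93.8% ± 0.541 to 64.3% ± 2.09 in F-MTAza (adjusted p = 1.79e-05) and to 65.7% ± 2.44 in NP-MTAza (adjusted p = 1.33e-05, limma), in every fit without 1 library.

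**Figure D4:**
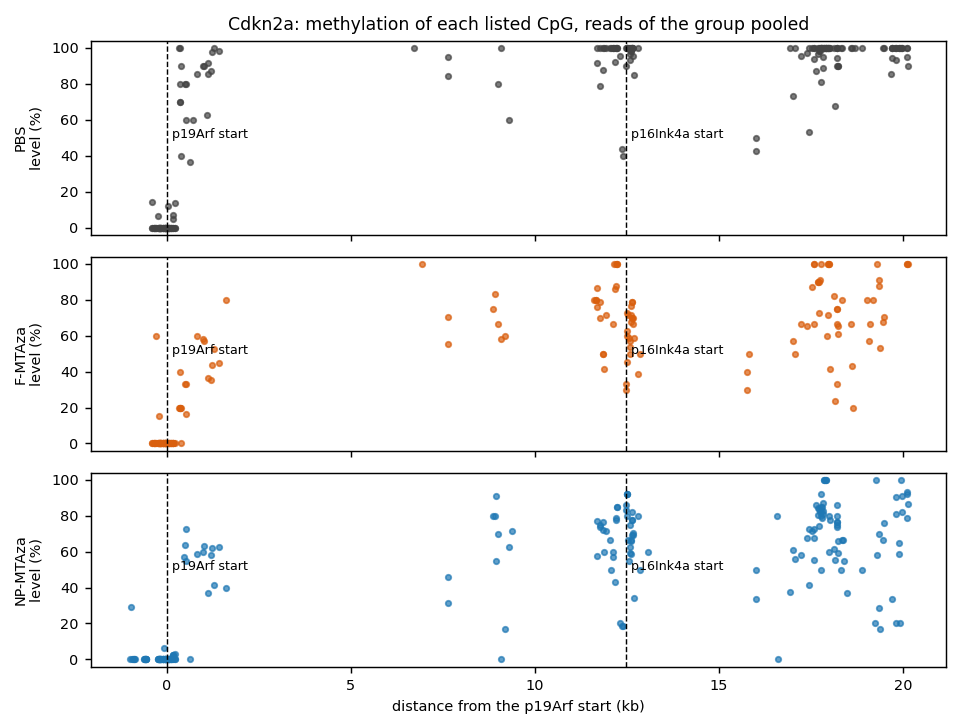
Methylation level (percent, reads of a group pooled) of each listed CpG of Cdkn2a by distance from the p19Arf start (kb) in PBS, F-MTAza and NP-MTAza; dashed lines mark both starts. CpGs just before the p19Arf start lie near 0 in each group, and those around the p16Ink4a start, 93.2% in PBS, are spread at lower levels in both drug groups.

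Other annotated starts inside members showed both states too. Cdkn1a, whose outermost start had no level, read 0 of 220 PBS reads methylated within 500 bp of the Cdkn1a-001 start (2793 bp inside), which allows up to 1.36%, and 1 of 493 in F-MTAza. Only 2 PBS libraries had a level there, and reads were again summed over CpGs, so this limit is too tight as well. The Cdkn1a-002 start, 7228 bp inside, stood at 96.9% ± 0.575 in PBS (SD, n = 3), 80.7% ± 4.65 in F-MTAza (SD, n = 2) and 75.8% ± 5.37 in NP-MTAza (SD, n = 3). For Ccnd3 the outermost start was partly methylated, as above, and the Ccnd3-201 start 88416 bp inside stood at 2.48% ± 4.29 in PBS (SD, n = 3), with 7.43% in PBS replicate 2 and none of the reads methylated in the other PBS libraries. The Mybl2-005 start, 20058 bp inside the gene of the transcription factor B-Myb, stood at 96.1% ± 2.51 in PBS, 61.7% ± 16.3 in F-MTAza and 67.4% ± 6.76 in NP-MTAza (SD, n = 3 each), while the Mybl2 promoter stood at 7.17% ± 0.83 in PBS.

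In the gene bodies the fall was common. Bodies were tested in 45 members (none for Cdkn2d). In F-MTAza 25 of 45 were called lower, with 82.3% of 16988 bodies over all genes. In NP-MTAza 27 of 45 were, with 85.1%, and with Aza replicate 3 22 of 45, with 77.1%. No member body was called higher, with backgrounds of 0.1%, 0.0118% and 0.0178%. The members' share lay below that of all genes, and so did their PBS levels: 29 of the 45 bodies (64.4%) were over 50% in PBS, against 84.2% of all genes, and 8 (17.8%) were near 0, against 2.40%. Within the bodies over 50%, members kept a median of 65.4% of their PBS level in F-MTAza, 65.6% in NP-MTAza and 61.8% in Aza replicate 3, and all genes 65.5%, 63.5% and 62.1%.

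**Figure D5:**
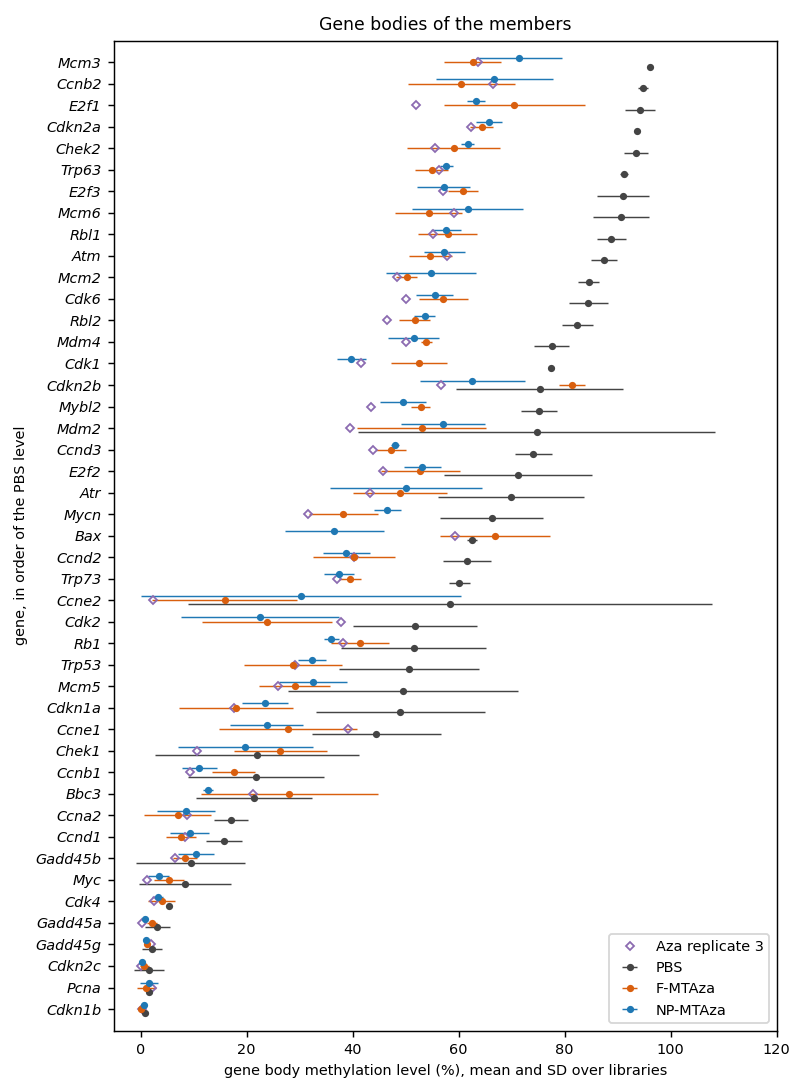
Gene body methylation level (percent, mean and SD over libraries; Aza replicate 3 a single value) of the 45 members with a level, in order of the PBS mean. The most methylated bodies, from Mcm3 at 96.2% downward, move left in all drug groups, and the 8 bodies under 10% lie at the bottom.

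In 24 members the body was called lower in both combination groups, and in the same 24 every library with drug lay below every PBS library. Over all genes 80.1% of 16988 bodies were called lower in both groups and 79.1% of 17266 did not overlap, so the members' 24 of 45 lay below both shares. The largest falls were those of Trp63, Chek2, Mcm6, E2f3, Mcm2, Atm, Cdk1 and Ccnb2. Trp63, the gene of the p53 relative p63, read 90.9%, 92.1% and 90.6% in PBS, 53.01%, 53.2% and 58.5% in F-MTAza, 58.6%, 58.2% and 56.2% in NP-MTAza and 56.2% in Aza replicate 3 (a fall of 36.3 points, adjusted p = 1.72e-05, and of 33.5 points, adjusted p = 1.22e-05, limma). The 3 libraries of each group lay close together. The checkpoint kinase Chek2 read 95.8%, 93.5% and 91.1% in PBS, 69.1%, 52.7% and 55.3% in F-MTAza and 60.5%, 62.9% and 61.9% in NP-MTAza. Atm, the kinase that senses double-strand breaks, read 86.0%, 86.1% and 90.2% in PBS, 53.5%, 51.3% and 59.2% in F-MTAza and 52.8%, 60.1% and 58.8% in NP-MTAza. The promoters of Chek2 and Atm were at most 6.99% and 5.79% in any of the 10 libraries.

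The helicase subunits Mcm2 and Mcm6 lay in the same range. Mcm2 read 82.2%, 85.8% and 85.5% in PBS, 48.2%, 50.3% and 52.1% in F-MTAza and 55.9%, 62.6% and 45.8% in NP-MTAza. Mcm6 read 90.6%, 96.0% and 85.5% in PBS, 58.2%, 47.1% and 57.8% in F-MTAza and 56.9%, 54.4% and 73.7% in NP-MTAza. Among the mitotic genes, Ccnb2 (cyclin B2) read 95.2%, 95.3% and 93.7% in PBS, 57.7%, 52.1% and 71.8% in F-MTAza and 76.7%, 68.6% and 54.8% in NP-MTAza. Cdk1, the kinase of the B cyclins, read 78.1%, 77.4% and 77.0% in PBS, 51.9%, 47.5% and 58.1% in F-MTAza and 36.6%, 40.9% and 41.8% in NP-MTAza, so that its NP-MTAza libraries lay below its F-MTAza libraries. That difference of -12.8 points did not pass (adjusted p = 0.784, limma). E2f3 read 93.5%, 94.3% and 85.4% in PBS, 63.0%, 57.7% and 61.9% in F-MTAza and 62.2%, 56.9% and 52.3% in NP-MTAza.

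The core regulators differed among themselves. The body of Trp53 read 41.3%, 65.8% and 44.8% in PBS, 18.1%, 34.9% and 33.2% in F-MTAza and 30.0%, 31.6% and 35.2% in NP-MTAza, and was called lower in both (adjusted p = 0.016 and 0.0363, limma). The F-MTAza call was lost without F-MTAza replicate 1 (0.0543), and the NP-MTAza call without NP-MTAza replicate 1 (0.0895), 2 (0.0787) or 3 (0.0566) or PBS replicate 2 (0.11). Leaving out PBS replicate 2 moved the difference from -21.9 to -14.3 points in F-MTAza and from -18.4 to -10.8 points in NP-MTAza. The body of Cdkn1a read 37.6%, 67.2% and 42.1% in PBS, 7.18%, 18.2% and 28.7% in F-MTAza and 27.7%, 19.04% and 23.7% in NP-MTAza, again lower in both (adjusted p = 0.00677 and 0.0218), with the NP-MTAza call lost without NP-MTAza replicate 2 (0.0655) or PBS replicate 2 (-16.3 in place of -25.5 points, 0.0665). In both genes PBS replicate 2 was the highest library, and the libraries with drug lay below the other PBS libraries as well. The Cdkn1a body holds the unmethylated Cdkn1a-001 start and the methylated Cdkn1a-002 start, and its libraries did not read the same CpGs. PBS replicate 2 had no level at the first start and F-MTAza replicate 1 none at the second. In the test of single CpGs given below, 0 of 13 CpGs of this body were lower in F-MTAza and 1 of 21 in NP-MTAza. Over all bodies 25.6% and 30.3% were. Rb1 was called in NP-MTAza alone, at 51.5% ± 13.6 in PBS, 41.4% ± 5.53 in F-MTAza (adjusted p = 0.161) and 36.0% ± 1.44 in NP-MTAza (SD, n = 3 each, adjusted p = 0.0439). Its libraries read 44.8%, 42.5% and 67.2% in PBS, 45.0%, 35.01% and 44.2% in F-MTAza and 34.5%, 37.4% and 36.1% in NP-MTAza. Without PBS replicate 3 its NP-MTAza difference was -7.67 points (adjusted p = 0.0913), and the call was also lost without NP-MTAza replicate 1 (0.0997), 2 (0.0755) or 3 (0.0869) or F-MTAza replicate 1 (0.0538) or 3 (0.055). The body of Myc read 1.10%, 5.94% and 18.1% in PBS and 1.18% to 8.20% with drug, and was not called.

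Of the 29 bodies over 50% in PBS, Atr, Ccne2, Cdkn2b and Mdm2 were called in neither combination group, and their PBS libraries were spread over SDs of 13.8, 49.4, 15.7 and 33.8 points. The 8 bodies near 0 (Cdk4, Cdkn1b, Cdkn2c, Gadd45a, Gadd45b, Gadd45g, Myc, Pcna) had no call. The smallest changes, averaged over the combination groups, were those of Gadd45b (9.42% ± 10.2 in PBS, n = 2, SD), Pcna (1.62% ± 0.492), Cdkn1b (0.734% ± 0.541) and Bbc3 (21.4% ± 10.95, SD, n = 3 each). Bbc3 read 28.0% ± 16.7 in F-MTAza and 12.7% ± 0.939 in NP-MTAza, in opposite directions from PBS, neither of which passed (adjusted p = 0.462 and 0.296, limma).

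Single CpGs gave the same order of parts. A CpG was called where pooled reads differed by 35 points or more at q under 0.01 in a likelihood ratio test and all 6 libraries had 5 reads. In member promoters 6 of 395 tested CpGs were lower in F-MTAza, where 5.74% of CpGs in all promoters were, and 17 of 654 in NP-MTAza, where 7.05% were. In member bodies 139 of 576 were lower in F-MTAza (25.6% over all bodies) and 234 of 936 in NP-MTAza (30.3%). None was higher. In promoters, the F-MTAza calls were 2 each in Ccne1 and E2f1 and 1 each in Cdkn1b and Rb1, and in bodies the most were 26 of 76 in Ccnd3 and 18 of 48 in Cdk6. Of the 17 NP-MTAza promoter calls 11 were in Trp73, where 24 CpGs were tested, and none of 21 tested CpGs was called in Ccnd2. In F-MTAza none of 6 was called in Trp73 and none of 8 in Ccnd2. This test pools reads over libraries and does not use their spread. With a correction for overdispersion no member CpG was called, nor any of 511951 and 814539 CpGs over the genome, while 127 of 971 and 222 of 1590 member CpGs (13.1% and 14.0%) were at least 35 points lower at an unadjusted p under 0.05, against 19.4% and 23.0% over the genome.

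The micelle and free forms of the combination were compared directly. No member promoter or body was called between NP-MTAza and F-MTAza, with a background of 0.0% in both parts. By limma at an unadjusted p under 0.05, none of the 41 promoters and 2 of the 45 bodies differed, with 761 of 14514 promoters (5.24%) and 945 of 16988 bodies (5.56%) over all genes. The median difference over members was -0.20 points in promoters and 0.44 points in bodies. F-MTAza, NP-MTAza and Aza replicate 3 were all compared with the same 3 PBS libraries, so their counts are not independent of one another.

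Further genes of the same pathways, 121 in 5 lists (the E2f, Myb and Myc network, replication and licensing, mitosis and checkpoints, DNA damage response, p53 targets and apoptosis), were counted beside them. Of 113 tested promoters 7 were lower in F-MTAza and 6 in NP-MTAza, where 21.4% and 23.7% of all promoters were. Of 118 bodies 92 (77.97%) and 95 (80.5%) were lower, where 82.3% and 85.1% of all bodies were. Their median PBS promoter level was 3.03%. None of the 24 promoters of the mitosis list was called, while 19 and 21 of its 24 bodies were, with the same shares over all genes as background. The promoters named here are up to 2 a list with the largest called differences in the combination groups, and all stood at 21.5% or more in PBS. Bak1 (a pore-forming death gene) went from 47.6% to 3.82% in F-MTAza (adjusted p = 0.00376, limma). Sfn (14-3-3 sigma, a p53 target that holds cells before mitosis) went from 87.4% to 62.4% in F-MTAza (adjusted p = 0.00499) and 59.7% in NP-MTAza (adjusted p = 0.0031). Tk1 (thymidine kinase, of DNA precursor synthesis) went from 75.1% to 46.9% and 46.1% (adjusted p = 0.0331 and 0.0273), and Pold1, the catalytic subunit of DNA polymerase delta, from 24.4% to 0% in F-MTAza (adjusted p = 0.0241). Mlx (a partner of the Myc network) went from 87.1% to 57.5% and Mga (a Max partner) from 44.2% to 21.8%, both in NP-MTAza (adjusted p = 0.0275 and 0.0358), and Topbp1, of the damage response, from 21.5% to 9.98% in F-MTAza (adjusted p = 0.0438).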

How the data were processed

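RRBS methylation was measured in 12 libraries of PKD1-Het cells, grouped by the treatment in the labels, of which 10 were compared. Per the submitters' processing notes and the study's methods, reads were trimmed with Trim Galore 0.4.4 and aligned to mm9 with Bismark 0.20.1 and Bowtie2, both strands of a CpG were merged, and CpGs with 5 reads or more were kept. The deposited files give, for each CpG, methylated and total reads and a percent that the authors rounded down; the reads were used here. Of 290107 listed positions on chromosome 19, 289983 (99.957%) are CpGs of mm9.

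Reads were summed over promoters and bodies of GENCODE M1 genes (3 CpGs or more). Levels were tested with limma 3.58.1 (R 4.3.3) on an arcsine square root scale over all protein-coding genes with a level in 2 libraries or more of PBS, F-MTAza and NP-MTAza, all groups in 1 fit, and called at an adjusted p under 0.05 (Benjamini-Hochberg) and 10 points. The lone Aza library was assumed to vary like the other groups. Single CpGs were tested with a likelihood ratio test on pooled reads (python 3.11.15, scipy 1.17.1). Both tests were first tested on simulated data. Sequences were read from the mm9 genome with pysam 0.24.0. The sequence of 1 start region is not reported here. Limits for counts of 0 use 3 reads and cover counting error only, since PCR copies were not marked by molecular identifiers. They also take counts at neighbouring CpGs as independent, though 1 read can cover several CpGs, so the true limits are wider.

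The members and lists were chosen with earlier results of these data known. Values in every library were given for members at 10% or more in PBS promoters, called promoters, the 8 largest called and 4 smallest body changes, and Myc, Cdkn1a, Cdkn2a, Trp53 and Rb1; the upstream stretch and the other starts were added after the levels had been seen. Alternatives were the depth and CpG minimums, weighting, scale, window, difference threshold, replicate block, libraries left out one at a time, the libraries with 2 barcode sets and the 2 Aza libraries left out.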

Additional observations from a re-analysis of the deposited data

Results flagged for a closer look

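The median methylation of the member promoters was 40.55% in Aza replicate 1 and 44.71% in Aza replicate 2, the libraries left out of every comparison, against 1.25% in Aza replicate 3 and 1.57% to 4.88% in the PBS libraries. These values are shown because they come from data outside the comparisons and lie above the control level. The member bodies stood at a median of 38.0% and 41.7% in the same libraries, close to their promoters, where Aza replicate 3 stood at 39.4% in bodies. Over all genes the promoter medians were 42.4% and 46.7%. The labels report 2 sets of barcodes for both libraries, and the part of this in the values was not tested.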

How the results depend on the processing

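Counts are of members called lower. For promoters, where the counts were 1 in F-MTAza and 2 in NP-MTAza, the count was 0 in both with all 3 Aza replicates in the fit, on a logit scale and without the NP-MTAza libraries with 2 barcode sets. With a window of 500 bp either side of the start it was 0 in F-MTAza and 1 in NP-MTAza, and with 10 reads per CpG 0 in NP-MTAza. A like count could hold other genes: the 1 F-MTAza call was Bbc3 with 10 reads and Cdkn1b with the CpGs listed in all 10 libraries, in place of Trp73, and in the latter E2f2 replaced Ccnd2 in NP-MTAza. The stretch from 500 to 2000 bp upstream alone, added after seeing the data, gave 6, 4 and, with Aza replicate 3, 2. Leaving out each library in turn gave promoter counts of 0 to 1 (F-MTAza) and 1 to 2 (NP-MTAza), upstream counts of 4 to 6 (F-MTAza), 2 to 5 (NP-MTAza) and 1 to 3 (Aza replicate 3), and body counts of 22 to 28, 21 to 29 and 20 to 23. For single CpGs, with 145 called in F-MTAza and 251 in NP-MTAza, 10 reads gave 25 and 99, a difference of 25 points gave 272 and 433, an overdispersion correction gave 0 and 0, and libraries left out gave 154 to 196 and 253 to 332. The promoter differences of Trp73 and Ccnd2 and the body differences of Cdkn2a changed sign in none of these. Calls of members as higher appeared with all 3 Aza replicates against PBS (promoters of Cdk1 and Mcm5, bodies of Cdkn1b, Gadd45g and Pcna) and with the replicate block in NP-MTAza (promoter of Bax).

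Replicate numbers did not pair the libraries: deviations of same-numbered libraries correlated at -0.0814 to 0.055 in promoters and -0.122 to 0.0279 in bodies. With the replicate block the promoter count was 1 in F-MTAza and 1 in NP-MTAza, the upstream count 4, 4 and, with Aza replicate 3, 0, and the body count 24, 27 and 22. Upstream, the block added Mdm4 in NP-MTAza (adjusted p = 0.0329) and lost Cdk2 there (0.0638) and E2f1 (0.0511) and Cdkn1b (0.0672) in F-MTAza. In promoters it lost Ccnd2 in NP-MTAza. The causes of these changes were not tested. CpGs had a median of 7 to 9 reads, and the smallest promoter difference detectable at this depth was not measured.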
